A study of Mus musculus with 24 samples.

Results

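The genes of the constitutive 26S proteasome, its activators and its assembly factors were followed in mouse myoblasts depleted of KEAP1, FEM1B or both. Members were all protein-coding genes whose symbol begins with Psm, a letter from a to g and a digit, together with Pomp and without the immunoproteasome genes Psmb8, Psmb9 and Psmb10. This rule named 48 of 35968 annotated genes, of which 47 passed the filter on low counts and were tested. By role they were 8 alpha ring genes, 8 beta ring genes, 6 base ATPases, 3 base non-ATPases, 8 lid genes, 6 activators or inhibitors and 8 assembly factors. The remaining gene, Psmc3ip, encodes a meiotic recombination factor that binds a base ATPase and is no proteasome subunit, but its symbol fits the rule.

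The proteasome degrades proteins marked with ubiquitin. Its core is a barrel of stacked alpha and beta rings that holds the proteolytic sites, and a regulatory cap adds a base, whose ATPases unfold the substrate, and a lid, which removes ubiquitin. Cells raise the transcription of these genes together when proteasome capacity falls short, through the transcription factor NRF1 (Nfe2l1), a relative of the antioxidant regulator NRF2 (Nfe2l2). KEAP1 hands NRF2 to a cullin ubiquitin ligase for degradation by the proteasome, and FEM1B is the substrate receptor of another cullin ligase, active under reductive stress.

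All libraries came from C2C12, an established mouse myoblast line, kept undifferentiated and subconfluent in medium with serum and harvested 48 h after transfection. There were 3 libraries in each of 4 groups: siCont, given a non-targeting siRNA, siKeap1 and siFem1b, given the siRNA to the gene named, and siFem1b/Keap1, given both. The study gives 1 siRNA sequence per target, so loss of the target and other actions of that siRNA cannot be told apart. After addition of its 2 sequencing runs, a library held 31.9 to 43.0 M estimated counts. The labels do not say whether the 3 libraries of a group came from separate cultures, so the p-values rest on a spread between libraries that may be technical.

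The depletions were visible in the RNA. In CPM (library-scaled counts, with TMM factors), Keap1 averaged 61.8 for siCont and 59.2 for siFem1b, against 9.99 for siKeap1 and 9.38 for siFem1b/Keap1. Fem1b averaged 96.9 CPM for siCont and 102 for siKeap1, against 13.2 for siFem1b and 12.7 for siFem1b/Keap1. All 6 myoblast markers examined passed the filter, with summed levels of 1181 to 1202 CPM in siCont, 955 to 1040 in siKeap1, 1523 to 1633 in siFem1b and 1210 to 1251 in siFem1b/Keap1. Against siCont, 4 of the 6 fell in siKeap1 (23.8% of all genes tested) and all 6 rose in siFem1b (30.0%). After both, 2 fell and 3 rose, where 33.7% of all genes fell and 33.8% rose. Markers of other lineages were mostly low: Epcam, Ptprc, Lyz2, Adipoq, Plin1, Cidec, Rbfox3 and Snap25 failed the filter, the 4 leukocyte markers summed to at most 6.74 CPM and the 4 endothelial markers to at most 2.14. The 5 epithelial markers, mostly keratin Krt14, summed to between 9.36 and 11.1 CPM in siCont, 61.0 to 65.9 in siKeap1, 14.8 to 17.1 in siFem1b and 38.4 to 40.7 in siFem1b/Keap1. Of the 4 epithelial markers tested, 2, 3 and 4 rose in siKeap1, in siFem1b and after both, where 18.4%, 30.0% and 33.8% of all genes rose. The 4 neuronal markers, mostly the tubulin Tubb3, summed to between 209 and 313 CPM over all libraries. The part of these markers in the changes of the proteasome genes was not tested.

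The siCont libraries differed among themselves in the proteasome genes more than the libraries of the other groups. Replicate 2 was the highest of the 3 for 38 of the 47 tested genes and replicate 1 the lowest for 37. Summed over the members, siCont replicates 1 to 3 held 6633, 7236 and 6917 CPM. The corresponding ranges were 7232 to 7298 CPM in siKeap1, 5853 to 5931 in siFem1b and 6443 to 6531 in siFem1b/Keap1. Every siFem1b and siFem1b/Keap1 library thus lay below the lowest siCont library, and the siKeap1 libraries lay near the highest.

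Levels of different genes were compared per length, as the deposited TPM, a length-corrected share of a library's transcripts, in siCont. Psma7, an alpha ring subunit, was the most abundant at 541 ± 12.3 TPM (SD, n = 3), followed by the beta ring genes Psmb3 at 447 ± 19.6 and Psmb6 at 419 ± 10.4. Psmb3 and Psmb6 overlapped in their libraries, as did most neighbours further down the order. The core, base and lid genes expressed in these cells ran from 72.0 TPM for Psma2 to the 541 TPM of Psma7. Within the base ATPases, which occur in equal number in the complex, the highest gene was 2.11 times the lowest. The ratio was 2.42 in the lid. Leaving out Psma8 and Psmb11, it was 2.73 in the beta ring and 7.51 in the alpha ring, where Psma2 was the lowest. Over all libraries Psma2 held 0.0578 M counts and Psma1 0.0508 M. The most abundant coding transcript of Psma2 is longer, with 2881 stretches of 31 bases against 1171 in Psma1. The part of transcript length and of the assignment of counts to transcripts in the low TPM of Psma2 was not tested.

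Assembly factors were less abundant as RNA, with a median of 47.6 TPM against 238 TPM in the alpha ring, 273 in the beta ring and 184 in the lid. Pomp, which helps the half-built core mature, was the exception at 199 ± 2.66 TPM. The lowest members were Psmd10, a base assembly factor, at 14.3 TPM and Psme2b, a near copy of the activator gene Psme2, at 3.69 TPM. Psmb11, the thymus-specific beta subunit, reached 0.198 TPM. Psma8, the testis-specific alpha subunit, had no count in any library and was the member not tested.

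**Figure D1:**
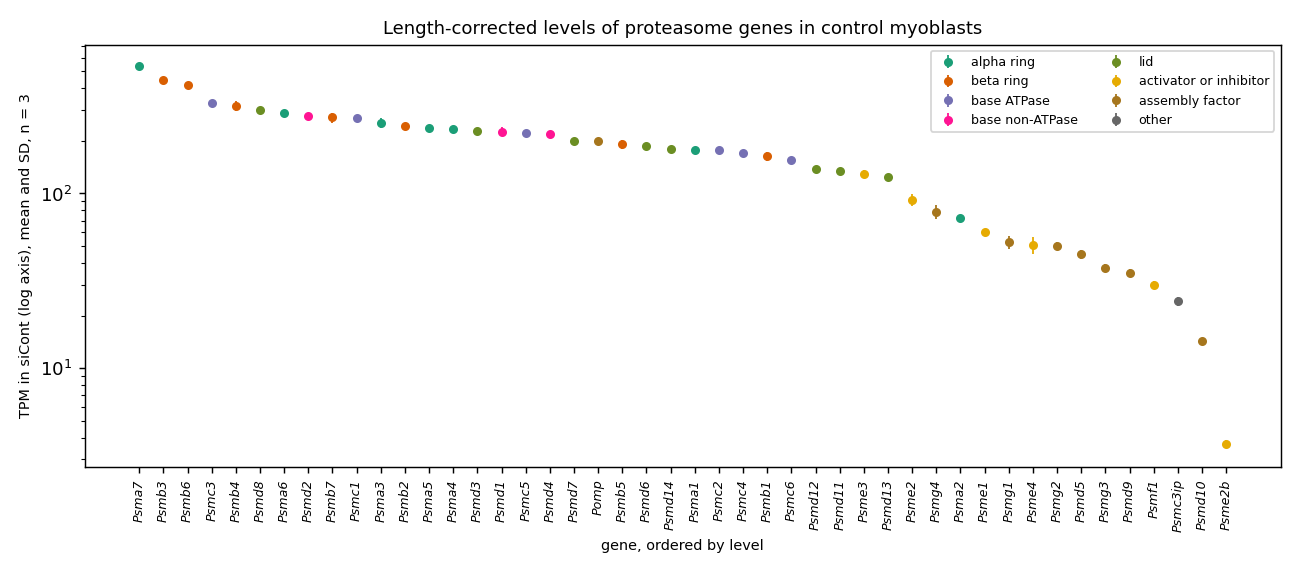
Length-corrected RNA level of each proteasome gene in siCont (TPM on a log axis, mean and SD of 3 libraries, genes over 1 TPM), ordered by level and coloured by role. Core, base and lid genes fill the upper part from 541 down to 72.0 TPM, and most assembly factors stand below them.

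Fem1b depletion lowered most of the proteasome genes, by amounts that differed between members, from -0.75 for Psma5 to 0.82 for the activator gene Psme2, which rose. Against siCont, 36 of the 47 tested members fell and 2 rose (edgeR's quasi-likelihood test, Benjamini-Hochberg adjusted p under 0.05), where 32.1% of all 14577 genes tested fell and 30.0% rose. The members' median log2 fold change was -0.24, against -0.01 over all genes. The libraries of the 2 groups did not overlap for 34 members that were lower and 2 that were higher, where this held for 32.5% and 31.1% of all genes. With scaling by library totals alone, which shifted the median of all genes to 0.09, the members' median was -0.14, with 26 lower and 3 higher.

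The decrease touched every structural class. In the alpha ring 6 of 7 tested genes fell, in the beta ring 5 of 8, among the base ATPases 5 of 6, among the base non-ATPases 3 of 3, in the lid 7 of 8 and among the assembly factors 7 of 8. Class medians of the log2 fold change ran from -0.18 in the beta ring to -0.30 in the lid and -0.43 in the assembly factors. With TMM scaling no core, base, lid or assembly gene rose, and Psmc3 was the member of these classes with a positive value, at 0.06 and not past the test. Differences between classes were not tested.

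Markers of differentiating muscle moved with this comparison. All 10 rose in siFem1b, where 30.0% of all genes rose. Their summed levels were 192 to 206 CPM against 14.0 to 17.6 in siCont, 17.2 to 18.5 in siKeap1 and 152 to 163 in siFem1b/Keap1. Such sums follow the most abundant markers. By single markers, 4 fell and 1 rose in siKeap1 against siCont (23.8% and 18.4% of all genes), with a median of -0.51. After both, 8 rose against siCont (33.8% of all genes). Against siFem1b, 9 fell and 1 rose after both (21.8% and 21.3% of all genes), with a median of -1.90. Myogenin (Myog) averaged 59.3 CPM in siFem1b and 1.57 in siCont, and Mymx had no count in siKeap1. The part of these muscle markers in the change of the proteasome genes was not tested, and in bulk RNA fewer cells of a type and less RNA per cell cannot be told apart.

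**Figure D2:**
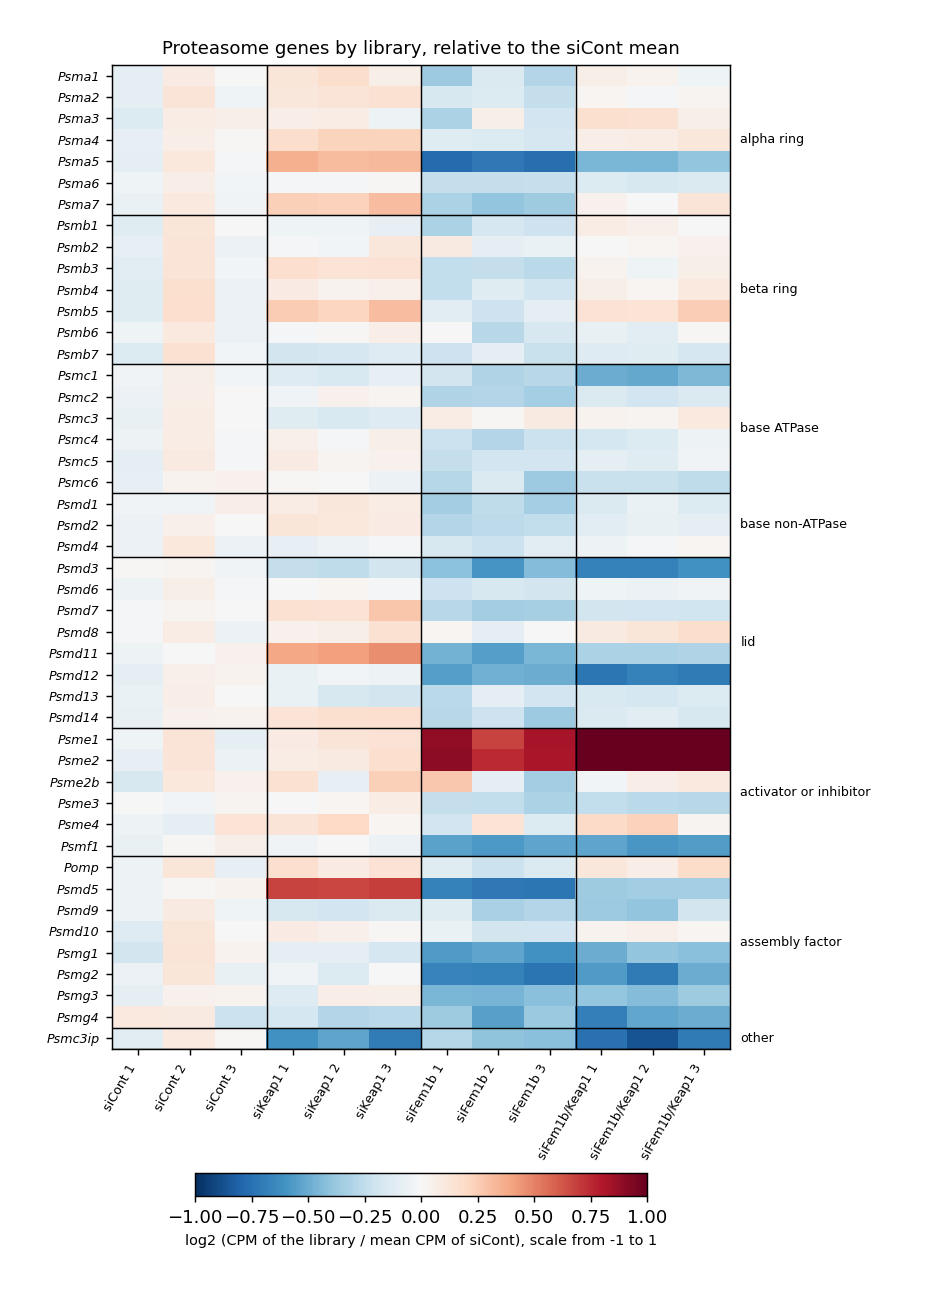
Level of 46 proteasome genes (rows, grouped by role) in each of the 12 libraries (columns) as log2 of CPM over the siCont mean, on a colour scale that ends at -1 and 1; Psmb11 and Psma8 are left out because of their low counts. The siFem1b columns are mostly blue, with the activators Psme1 and Psme2 red, and siKeap1 is red for single genes such as Psmd5, Psmd11 and Psma5.

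Keap1 depletion split the members. Against siCont, 12 of 47 rose and 8 fell, where 18.4% of all genes rose and 23.8% fell, so both shares lay near the background. The median of the members was 0.03 and that of all genes -0.02. Groups did not overlap for 11 members that were higher and 6 that were lower, against 22.3% and 28.9% of all genes. The 8 lower calls changed when single libraries were left out: without siCont replicate 2 they numbered 2, and the higher calls 17. Over all genes, 3298 were then lower and 2549 higher, against 3475 and 2681. Without siCont replicate 1 the higher calls numbered 7, and 2363 over all genes. From either sequencing run alone, 2 members were lower, where 2181 of all genes were lower from the first and 2767 from the second.

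The members that rose most in siKeap1 came from different parts of the complex. Psmd5, an assembly factor of the base, rose by 0.68 ± 0.036 (log2 fold change ± SE), the lid gene Psmd11 by 0.42 ± 0.038 and the alpha ring gene Psma5 by 0.33 ± 0.044. These 3 were also among the members that fell in siFem1b. In the alpha ring 4 of 7 tested genes rose and none fell. In the lid 3 rose and 2 fell, in the beta ring 2 rose and 1 fell, and no base ATPase rose while 2 fell.

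Depletion of both gave an intermediate picture. Against siCont, 24 members fell and 5 rose, where 33.7% of all genes fell and 33.8% rose. Their median was -0.12 against 0.01 over all genes. With scaling by library totals alone the members' median was 0.01 while that of all genes moved to 0.13, and 14 members were lower and 18 higher. Non-overlapping libraries were found for 22 lower and 4 higher members, against 35.2% and 35.1% of all genes. Without siCont replicate 2 the counts were 21 lower and 8 higher, and without siCont replicate 1, siCont replicate 3 or siFem1b/Keap1 replicate 3 the higher calls numbered 2. Over all genes, the higher calls without these last libraries numbered 4699, 4671 and 4777, against 4934.

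The classes did not move alike after the double depletion. Among the 15 tested ring genes, 3 fell and 1 rose, with a median of 0.02. Among the 17 base and lid genes, 12 fell and 1 rose, with a median of -0.14. Of the 8 assembly factors 6 fell and 1 rose, with a median of -0.37. All 3 depletions were compared with the same siCont libraries, so these counts are not independent of one another.

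**Figure D3:**
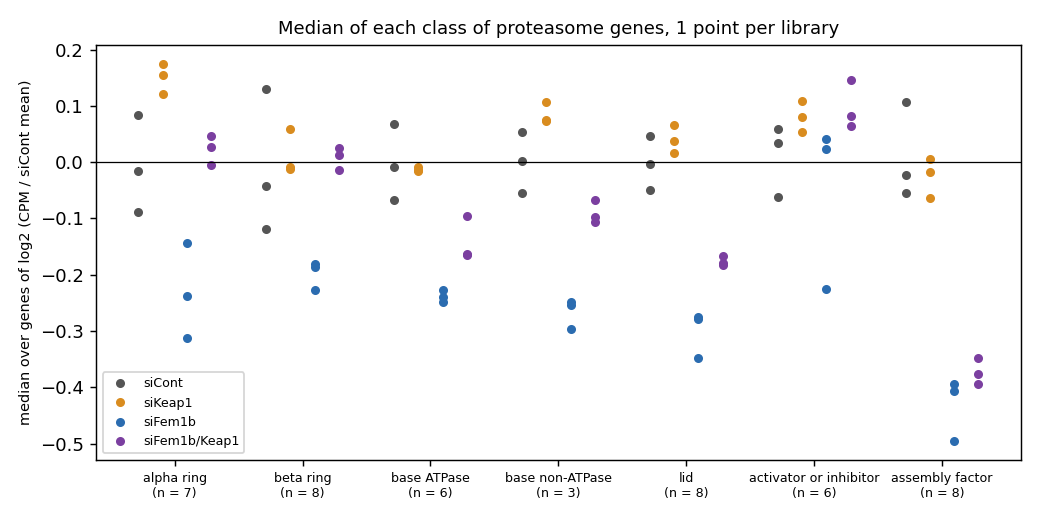
Median over the tested genes of each class of log2 (CPM over the siCont mean), 1 point per library, 3 libraries per group. The siFem1b points lie below all siCont points in every class except the activators, whereas the siFem1b/Keap1 points lie near siCont in both rings and well below it in the assembly factors.

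The double depletion was also compared with each single one. Against siKeap1, 26 members fell and 3 rose, where 31.6% of all genes fell and 32.0% rose, with a median of -0.14 against 0.00 over all genes. Libraries did not overlap for 27 lower and 4 higher members, against 34.5% and 34.9% of all genes. Against siFem1b, 26 members rose and 4 fell, where 21.3% of all genes rose and 21.8% fell, with a median of 0.14 against 0.01. Non-overlap held for 28 higher and 4 lower members, against 25.6% and 25.3% of all genes. The latter comparison does not use siCont: adding the Keap1 siRNA to Fem1b depletion came with higher RNA of 10 of 15 ring genes, 11 of 17 base and lid genes and 3 of 8 assembly factors.

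On the deposited TPM scale, which is relative to the library total, the 48 members summed to 8312 ± 149 TPM in siCont (SD, n = 3), 8565 ± 6.76 in siFem1b/Keap1, 8615 ± 90.4 in siKeap1 and 7904 ± 142 in siFem1b. The sum was thus lowest in siFem1b on this scale too, but siFem1b/Keap1 lay above siCont. The alpha ring summed to 1807 ± 45.4 TPM in siCont and 1618 ± 86.9 in siFem1b. The beta ring summed to 2055 ± 92.1 and 2008 ± 18.2, a difference smaller than the spread of siCont. On this scale some core, base and lid genes stood higher in siFem1b than in every siCont library. Psmc3 ran from 369 to 384 TPM against 323 to 337, Psmb2 from 256 to 276 against 239 to 254, and Psmd8 from 318 to 335 against 294 to 305. Others, such as Psma5, Psmd3 and Psmd11, lay below every siCont library.

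Among the alpha ring genes, Psma5 (chr3:108256926-108279974 on GRCm38, plus strand) changed most. Its 3 siCont libraries stood at 152, 176 and 161 CPM and its siKeap1 libraries at 209, 204 and 204. In siFem1b it stood at 95.9, 99.2 and 96.5 CPM, and in siFem1b/Keap1 at 119, 119 and 124. The 4 groups did not overlap, with siKeap1 highest, siCont next and siFem1b lowest. The log2 fold changes against siCont were 0.33 ± 0.044, -0.75 ± 0.045 and -0.44 ± 0.044 for siKeap1, siFem1b and siFem1b/Keap1 (edgeR's quasi-likelihood test, adjusted p 5e-06, 5.3e-11 and 5.7e-08). Of its 31-base sequence words, 66.5% also occur in other genes, mainly a pseudogene, which carried 0.0313% as many counts.

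Psma7 showed the same order between siKeap1 and siFem1b but overlapped siCont when both were depleted. It stood at 236, 266 and 242 CPM in siCont and 292, 291 and 307 in siKeap1. In siFem1b it stood at 199, 188 and 193 CPM, and in siFem1b/Keap1 at 256, 247 and 271. The double depletion overlapped siCont, at 0.06 ± 0.046 and adjusted p = 0.28, and lay above all siFem1b libraries by 0.42 ± 0.047 (adjusted p = 7.9e-07). Psma6 differed little in siKeap1, at -0.01, and fell by 0.24 in siFem1b and by 0.15 after both, the latter not with library totals alone or from the first run alone. The remaining alpha ring genes Psma1, Psma2, Psma3 and Psma4 ranged from -0.26 to -0.14 in siFem1b, and Psma3 among them did not pass the test. Psma3 counts were spread over several transcripts, of which a retained-intron form held 35.9% and a form annotated for nonsense-mediated decay 27.8%.

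In the beta ring, Psmb5, which carries the chymotrypsin-like site, was the gene with the largest increase in siKeap1. Its libraries stood at 68.3, 83.3 and 71.3 CPM in siCont, 88.7, 86.3 and 92.1 in siKeap1, 69.3, 64.2 and 69.6 in siFem1b, and 82.2, 81.8 and 88.2 in siFem1b/Keap1. Both groups with the Keap1 siRNA lay above siFem1b, and siFem1b and siFem1b/Keap1 overlapped siCont. The changes were 0.26 ± 0.061 in siKeap1 (adjusted p = 0.0019) and 0.18 ± 0.061 in siFem1b/Keap1 (adjusted p = 0.015), and the siFem1b value of -0.13 ± 0.061 did not pass (adjusted p = 0.071). The siFem1b/Keap1 call was lost without siCont replicate 1 or 3, or siFem1b/Keap1 replicate 3. Psmb5 shares 74.0% of its 31-base words with other genes, and the pseudogene Gm3375 held 15.9% as many counts, so part of its level may have been split.

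Psmb3, a structural beta subunit, fell in siFem1b by 0.25 ± 0.049 (adjusted p = 0.00022) and rose in siKeap1 by 0.15 ± 0.049 (adjusted p = 0.019). It stood at 147, 175 and 156 CPM in siCont, 179, 175 and 176 in siKeap1, 134, 135 and 132 in siFem1b, and 163, 154 and 166 in siFem1b/Keap1. The highest siCont library nearly reached the siKeap1 libraries, and without siCont replicate 1 or 3, or siKeap1 replicate 1, the siKeap1 call was lost. Psmb7, which carries the trypsin-like site, was lower in each depletion, by -0.16, -0.17 and -0.14 for siKeap1, siFem1b and both. In all 3 cases its libraries overlapped siCont, and all 3 calls were lost with library totals alone, with a filter of 5 CPM in 3 libraries and without siCont replicate 2. The first run alone ended the siKeap1 call and that after both, and the second run alone the siKeap1 call. Leaving out siKeap1 replicate 1 or 2, siFem1b replicate 3 or siFem1b/Keap1 replicate 1 or 3 also ended the siKeap1 call, siFem1b replicate 3 the siFem1b call, and any siFem1b/Keap1 library the call after both. Part of Psmb7 also lies opposite another gene, Nek6, whose counts came to 23.8% of its own.

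Psmb1, another structural beta subunit, departed from additivity. It stood at 160, 189 and 174 CPM in siCont, 169, 169 and 165 in siKeap1, 140, 156 and 151 in siFem1b, and 184, 180 and 174 in siFem1b/Keap1. It was lower than siCont in siFem1b, by -0.23, but not after both, at 0.04. Psmb2, Psmb4 and Psmb6 ranged from -0.19 to -0.02 in siFem1b, and Psmb2 did not pass the test in any of the 3 comparisons with siCont. Psmb11 held between 0.270 and 0.709 CPM and passed no test.

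The base ATPases moved in narrow steps. Psmc1 was lowest when both genes were depleted: it stood at 245, 262 and 246 CPM in siCont, 230, 226 and 237 in siKeap1, 221, 204 and 207 in siFem1b, and 178, 176 and 184 in siFem1b/Keap1. No siFem1b/Keap1 library overlapped any other group. Its log2 fold changes were -0.12 ± 0.041, -0.25 ± 0.041 and -0.48 ± 0.041 (adjusted p 0.022, 2.6e-05 and 4.2e-09). The siKeap1 call was lost with library totals alone, with the 5 CPM filter, from either run alone and without siCont replicate 2, siKeap1 replicate 1 or 2, siFem1b replicate 2 or 3, or siFem1b/Keap1 replicate 1 or 3.

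Psmc2 fell by 0.31 ± 0.039 in siFem1b (adjusted p = 1.2e-06) and by 0.16 ± 0.039 after both. Its libraries were 185, 202 and 193 CPM in siCont, 189, 199 and 197 in siKeap1, 157, 158 and 153 in siFem1b, and 174, 169 and 175 in siFem1b/Keap1. siFem1b was lowest, siKeap1 overlapped siCont, and the call after both was lost with library totals alone. Psmc3 was the base ATPase that Fem1b depletion did not lower. It stood at 272, 301 and 284 CPM in siCont, 263, 258 and 262 in siKeap1, 301, 289 and 304 in siFem1b, and 293, 291 and 306 in siFem1b/Keap1. Its siKeap1 libraries lay below all others (-0.13 ± 0.040, adjusted p = 0.013), a call lost from either run alone and without siCont replicate 2, siFem1b replicate 3 or siFem1b/Keap1 replicate 1. Psmc6 fell by 0.26 and 0.23 in siFem1b and after both, the latter not with library totals alone.

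The non-ATPase subunits of the base, Psmd1 and Psmd2, are its scaffolds and are among the longest proteasome proteins. Psmd1 stood at 444, 444 and 478 CPM in siCont, 479, 492 and 480 in siKeap1, 358, 382 and 359 in siFem1b, and 411, 434 and 414 in siFem1b/Keap1. Psmd2 stood at 514, 555 and 535 CPM in siCont, 582, 576 and 566 in siKeap1, 435, 446 and 450 in siFem1b, and 496, 508 and 499 in siFem1b/Keap1. In both genes siFem1b was lowest and no siFem1b or siFem1b/Keap1 library overlapped siCont. They fell by 0.31 and 0.27 in siFem1b (adjusted p 1.6e-06 and 2.8e-06). After both depletions they were at -0.12 and -0.09 (adjusted p 0.015 and 0.03). With library totals alone these values turned positive. Both calls were lost with the 5 CPM filter, from the first run alone and without siCont replicate 3 or siFem1b/Keap1 replicate 1 or 3, and that of Psmd2 also without siCont replicate 2 and with no filter on low counts. Psmd2 was higher in siKeap1, at 0.10 (adjusted p = 0.026), a call lost with no filter on low counts and without siCont replicate 1 or 3, or siKeap1 replicate 1 or 2. Psmd4, a ubiquitin receptor, fell by 0.16 in siFem1b, though not with library totals alone or from the first run alone, where it was at -0.08 (adjusted p = 0.19), and was at -0.01 after both.

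**Figure D4:**
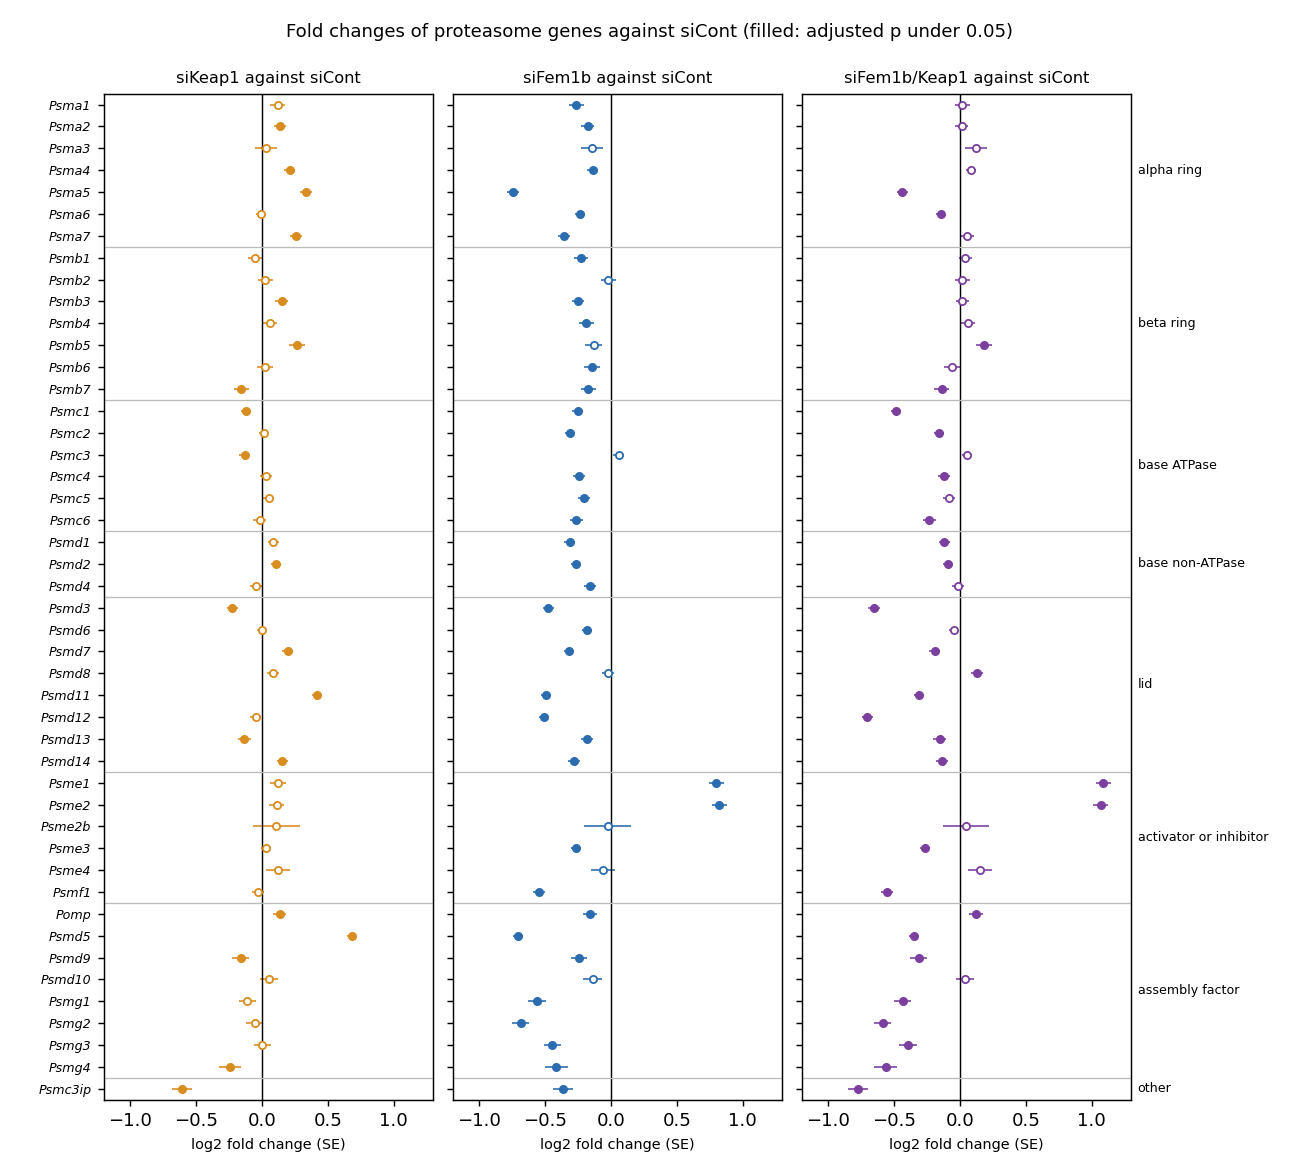
Log2 fold change with SE of 46 proteasome genes against siCont for siKeap1, siFem1b and siFem1b/Keap1 (filled points: adjusted p under 0.05; Psmb11 and Psma8 left out). Most siFem1b points are filled and left of 0, and Psme1 and Psme2 stand alone near 1 after both depletions.

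In the lid, Psmd11 and Psmd12 fell by similar amounts in siFem1b and differed in siKeap1. Psmd11 (chr11:80428615-80473248, plus strand), which helps clamp the lid to the core, stood at 185, 193 and 198 CPM in siCont and 251, 256 and 265 in siKeap1. It stood at 138, 132 and 140 CPM in siFem1b and 155, 155 and 156 in siFem1b/Keap1. The 4 groups did not overlap. Its log2 fold changes were 0.42 ± 0.038, -0.49 ± 0.038 and -0.31 ± 0.038 (adjusted p 4e-08, 2.1e-09 and 7.6e-07).

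Psmd12 (chr11:107479484-107504362, plus strand), a structural lid subunit, stood at 153, 169 and 166 CPM in siCont and 155, 160 and 157 in siKeap1. It stood at 111, 117 and 116 CPM in siFem1b and 98.4, 102 and 99.6 in siFem1b/Keap1. siKeap1 overlapped siCont, and siFem1b/Keap1 lay below siFem1b. The values were -0.05 ± 0.040 for siKeap1 (adjusted p = 0.37), -0.51 ± 0.040 for siFem1b (2.8e-09) and -0.70 ± 0.041 for both (1.9e-11). Psmd12 was thus lower after both depletions than after Fem1b depletion alone, by -0.19 ± 0.041 (adjusted p = 0.00073), as was Psmd3, by -0.18 ± 0.044 (adjusted p = 0.0034), and Psmc1, by -0.23 ± 0.041 (adjusted p = 0.00015).

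Psmd3 was lower in each depletion, at -0.22, -0.47 and -0.65 in siKeap1, siFem1b and both. Psmd13 was at -0.13, -0.18 and -0.15, all 3 calls lost with library totals alone and from the first run alone (adjusted p 0.21, 0.06 and 0.34). The 5 CPM filter ended the siKeap1 call and that after both. The siKeap1 call was also lost from the second run alone and without siCont replicate 2 or 3, siKeap1 replicate 2 or 3, siFem1b replicate 3, or siFem1b/Keap1 replicate 1 or 3. Psmd8 differed from the rest of the lid: it was at -0.02 in siFem1b and rose by 0.13 ± 0.044 after both (adjusted p = 0.016), a call lost without siCont replicate 1 or 3, or siFem1b/Keap1 replicate 3. Psmd14, the deubiquitinase of the lid, and Psmd7, its partner, fell by 0.28 and 0.32 in siFem1b and rose by 0.15 and 0.20 in siKeap1, the call of Psmd14 being lost without siCont replicate 1. Both were described after their values were seen.

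The activators did not move together. Psme1 (chr14:55578123-55581529, plus strand) and Psme2 (chr14:55587441-55591113, minus strand) encode both subunits of PA28, an ATP-independent cap known for its induction by interferon. They lie near each other on opposite strands and were the 2 members that rose in siFem1b. Psme1 stood at 33.4, 37.7 and 32.4 CPM in siCont, 36.6, 37.7 and 38.2 in siKeap1, 63.7, 55.1 and 61.1 in siFem1b, and 71.3, 72.6 and 76.0 in siFem1b/Keap1. Psme2 stood at 39.8, 46.0 and 40.4 CPM, 44.3, 44.7 and 47.2, 78.2, 70.5 and 74.3, and 85.8, 86.0 and 92.9 in the same groups. In both genes siKeap1 overlapped siCont, and siFem1b/Keap1 stood above all siFem1b libraries.

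The increase of Psme1 was 0.80 ± 0.059 in siFem1b (adjusted p = 9.4e-10) and 1.09 ± 0.059 after both (7e-12), and that of Psme2 0.82 ± 0.056 (3.2e-10) and 1.07 ± 0.056 (4.5e-12). In siKeap1 the values of 0.12 and 0.11 did not pass (adjusted p 0.11 and 0.13). Psme2 shares 66.2% of its 31-base words with Psme2b, whose counts came to 2.56% of its own. Psme3, the nuclear cap of the same family, fell by 0.27 in siFem1b and 0.26 after both, and Psmf1, an inhibitor of the core, by 0.55 and 0.56. Psme4, which encodes the large cap PA200, passed none of the 3 tests against siCont. Psme3, Psme4 and Psmf1 were chosen after their values were seen.

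**Figure D5:**
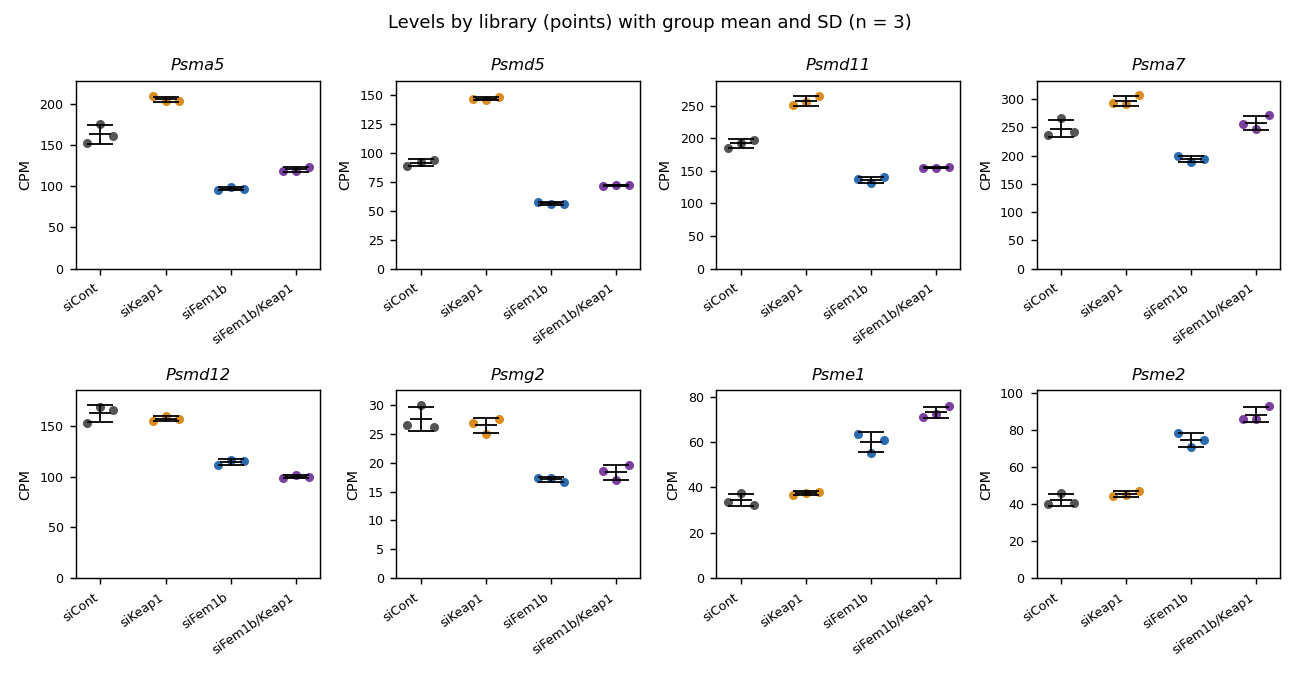
CPM of 8 proteasome genes in each library (points, 3 per group) with the group mean and SD, on axes that start at 0. Psma5, Psmd5, Psmd11 and Psma7 are highest in siKeap1 and lowest in siFem1b, Psmd12 and Psmg2 are low in both groups with the Fem1b siRNA, and Psme1 and Psme2 are high there.

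Psmd5 was the assembly factor with the largest change in siKeap1. In siFem1b its change was close to that of Psmg2, and after both depletions Psmg1, Psmg2, Psmg3 and Psmg4 had lower estimates; differences between these genes were not tested. The gene (chr2:34849734-34874968, minus strand) encodes a chaperone that holds part of the base ring before it joins the core. It stood at 88.3, 92.3 and 94.0 CPM in siCont, 146, 145 and 148 in siKeap1, 57.2, 55.7 and 55.6 in siFem1b, and 71.5, 72.1 and 72.2 in siFem1b/Keap1. The 4 groups were far apart compared with their spread. The log2 fold changes were 0.68 ± 0.036, -0.70 ± 0.037 and -0.35 ± 0.037 (adjusted p 2.4e-11, 9.5e-12 and 1e-07). When the Fem1b siRNA was added to Keap1 depletion, Psmd5 fell by 1.03 ± 0.037 (adjusted p = 3.4e-14), the largest decrease of any member in that comparison.

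The chaperones of the alpha ring, the pairs Psmg1 with Psmg2 and Psmg3 with Psmg4, did not rise in siKeap1 as Psmd5 did, and fell with it in siFem1b and after both. Psmg2 stood at 26.5, 30.0 and 26.2 CPM in siCont, 26.9, 25.0 and 27.6 in siKeap1, 17.4, 17.3 and 16.6 in siFem1b, and 18.6, 16.9 and 19.5 in siFem1b/Keap1. The libraries with the Fem1b siRNA lay below all others, and those groups overlapped each other. Psmg2 was at -0.06 ± 0.064 in siKeap1 (adjusted p = 0.52), -0.69 ± 0.066 in siFem1b (3.8e-08) and -0.59 ± 0.066 after both (2.1e-07).

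The other three chaperone genes moved likewise: Psmg1 fell by 0.56 and 0.43, Psmg3 by 0.44 and 0.39, and Psmg4 by 0.41 and 0.56 in siFem1b and after both. Psmg4 was also lower in siKeap1, at -0.24 with overlapping libraries, a call lost with library totals alone, from either run alone and without siCont replicate 1 or 2, siKeap1 replicate 2 or 3, siFem1b replicate 3, or siFem1b/Keap1 replicate 1. Pomp was at 0.13, -0.16 and 0.12 in siKeap1, siFem1b and both (adjusted p 0.043, 0.012 and 0.039). Without siCont replicate 1 or 3, or siKeap1 replicate 1 or 3, the siKeap1 call and that after both were lost, the latter also without siFem1b/Keap1 replicate 1 or 3. A replicate block ended both of these calls (adjusted p 0.065 and 0.058), the first run alone ended the siKeap1 call (0.07) and DESeq2's Wald test that after both (0.059). The siFem1b call was lost without siCont replicate 2 or siFem1b replicate 2, with library totals alone, with the 5 CPM filter and from the first run alone. Psmc3ip, which is no subunit, fell by 0.61, 0.36 and 0.77, the siFem1b call being lost from the first run alone, and a retained-intron transcript held 52.8% of its counts. It shares 28.2% of its 31-base words with Mlx on the opposite strand, whose counts came to 352% of its own, so its values are uncertain. Psmg1, Psmg3 and Psmc3ip were chosen after their values were seen.

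The departure from additivity was tested as the effect of the Keap1 siRNA with Fem1b depleted minus its effect alone. Of the 47 members, 2 were called negative and 1 positive, where 5.32% and 6.11% of all genes were, so neither share lay above the background. Psmd5 was at -0.32 ± 0.052 (adjusted p = 0.00036), Psmd11 at -0.24 ± 0.054 (0.0063) and Psmb1 at 0.33 ± 0.073 (0.0064). Psmd5 and Psmd11 rose less with the Keap1 siRNA when Fem1b was depleted too: Psmd5 by 0.36 against 0.68 and Psmd11 by 0.18 against 0.42. Psmb1 was at -0.06 with the Keap1 siRNA alone and rose by 0.27 on top of Fem1b depletion. The next by p-value, Psmd4, had 0.19 ± 0.064 (adjusted p = 0.060). From the first run alone Psmd11 was not called. The positive calls numbered 5 without siCont replicate 1, and 2 without siCont replicate 3 or siFem1b replicate 2.

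A list of 20 genes linked to the proteasome outside the membership rule, such as its deubiquitinases and ubiquitin shuttles, was counted in the same way. Paaf1 had no match, and of the 19 tested 12 fell and none rose in siFem1b, 4 fell and 4 rose in siKeap1, and 10 fell and 3 rose after both, read against the background shares above. Their medians were -0.24, -0.01 and -0.12. Uchl5, a deubiquitinase of the cap, fell by 0.87 in siFem1b and 0.97 after both, and its docking partner Adrm1 by 0.33 and 0.19. The shuttle gene Ubqln4 fell by 0.39 and 0.55, and Ube3c, a ubiquitin ligase that acts at the proteasome, by 0.33 and 0.69.

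The immunoproteasome genes, alternative catalytic subunits left out by the rule, stayed low. Psmb8 averaged 0.0748 CPM in siCont and 0.147 in siKeap1, against 0.443 in siFem1b and 0.999 in siFem1b/Keap1, and the increases in the latter groups passed the test (adjusted p 0.00045 and 1.3e-06). Psmb10 averaged 10.3, 10.2, 10.7 and 13.0 CPM in the same order and rose after both, by 0.34 (adjusted p = 0.00073). Psmb9 failed the filter. Of the 4 ubiquitin genes, Rps27a fell in siFem1b, by 0.47, and the other 3 did not pass the test there.

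The regulators did not share a direction. Nfe2l1 RNA was lower in siKeap1, at -0.30, and rose by 0.62 in siFem1b and 0.41 after both (adjusted p 1.8e-06, 3.1e-11 and 5.6e-09). Nfe2l2 RNA fell by 0.45, 1.02 and 1.40. Ddi2, the protease that activates NRF1, fell by 0.19, 0.35 and 0.43. All 6 NRF2 target genes examined, among them Nqo1, rose in siKeap1 and fell in siFem1b. After both 3 rose and 3 fell, read against the background shares above. No protein of these factors was measured here.

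Promoters were searched because NRF1 and NRF2 bind antioxidant response elements, whose core is TGACNNNGC. RefSeq windows of 300 bases, 250 before to 50 after the start site on GRCm38.p6, were found for 40 members. The core, on either strand, was present in 6 of them (15.0%) and in 3781 of 27025 genes with a window (14.0%), so its share among the members was near that of all genes. The 6 matches are shown with the core in capitals, on the strand where it reads TGACNNNGC:
Psmb5, chr14:54618024-54618052, minus strand: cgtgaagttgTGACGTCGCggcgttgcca
Psmb6, chr11:70525338-70525366, plus strand: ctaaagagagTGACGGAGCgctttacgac
Psmc6, chr14:45329587-45329615, minus strand: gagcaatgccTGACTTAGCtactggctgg
Psmd12, chr11:107479278-107479299, minus strand: ggggcaaatgTGACACAGCaga
Psmd9, chr5:123228149-123228177, plus strand: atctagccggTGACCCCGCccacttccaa
Psme4, chr11:30771758-30771786, minus strand: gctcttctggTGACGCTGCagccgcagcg

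Psmd12, which was lowest after both depletions, held the core, and Psmd5, Psmd11 and Psma5 had windows without it. Of the 6 genes with it, Psmb5 rose and Psmd9 fell in siKeap1, and the other 4 passed no test there. Their median in siKeap1 was 0.00, against 0.06 for the 34 members with a window and no core. In siFem1b 4 of the 6 and 27 of the 34 fell, with medians of -0.19 and -0.25. A match is a description of the letters, and elements outside these windows were not searched.

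Seed matches of the siRNAs were listed because the same siRNA was used in every library of a target. The guide strand of the Fem1b siRNA pairs, by its bases 2 to 8, with CAGAATT, and that of the Keap1 siRNA with GACACGG. The most abundant protein-coding transcript (GENCODE M21) of 8 tested members held CAGAATT, and 6 of these 8 fell in siFem1b, with a median of -0.39. Of the 39 members without it, 30 fell and the median was -0.24. All 3 members with a match in the 3' UTR fell, with a median of -0.49, and 3 of the 5 with a match elsewhere only, with a median of -0.28. Among all protein-coding genes tested, 40.8% of those with a match fell and 30.2% of those without, so lower calls were more common with a match in that whole set. The share was 44.1% with a match in the 3' UTR and 37.0% with a match elsewhere only. The part of the matches in the members' change was not tested. The sites of the members given above with every library are shown with the match in capitals, together with Psmd8, which has a site and was at -0.02:
Psma5, coding: tgcagcctggtCAGAATTtccacatgttc
Psmd11, 3' UTR: ctcctcctcttCAGAATTgggtgtttgct
Psmd12, coding: gagcacaacatCAGAATTatggccaagta
Psmd5, 3' UTR: acctaaaacagCAGAATTtcccaaggcac
Psmd8, coding: tgagttccacaCAGAATTagaacgattac

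The other sites were in Psmc6 (coding and 3' UTR), Psmd14 (5' UTR) and Psme4 (coding), of which Psme4 was not called in siFem1b. For the Keap1 siRNA, Psmc1, in its coding sequence, and Psme3, in its 5' UTR, held GACACGG. Psmc1 was lower in siKeap1 and Psme3, at 0.03, was not called. Among all protein-coding genes tested, 38.6% of those with GACACGG were lower in siKeap1 and 22.9% of those without. Lower calls were thus more common with a match for this siRNA too, and its part in the members' change was not tested. Psme1, Psme2, Psmg2, Psmb5 and Psma7 had no match to either seed.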

How the data were processed

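Total RNA with poly(A) selection was sequenced from 12 libraries of 4 siRNA groups, each in 2 runs. Transcripts were quantified with kallisto 0.44.0 on mouse build mm10, per the submitters' processing notes; trimming, strand setting and annotation release are not given in the sources used here. The deposited tables hold estimated counts and TPM per transcript, made by the authors, for 118489 transcripts, and the deposited length columns served only to check the match. Of these, 116728 matched GENCODE M21 by identifier and were summed to 35968 genes; unmatched transcripts held 0.606% to 0.640% of the counts and were left out. Counts were added over both runs and rounded. TPM was summed per gene and averaged over runs.

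Genes passing filterByExpr (14577) were scaled by TMM (factors from 0.952 to 1.04) and tested with edgeR 4.0.16 (R 4.3.3), a robust quasi-likelihood fit over all 12 libraries with 1 term per group, 2-sided. P-values were adjusted by Benjamini-Hochberg within each of 6 comparisons, with a threshold of 0.05. The code was tested on simulated data. The alternatives were DESeq2 1.42.0 (size factors and Wald test), library totals, other filters, single runs, a replicate block and leaving out each library.

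The members and lists were chosen with earlier results of these data known. In each class and comparison with siCont, the 2 called members with the largest absolute change were named, the largest with every library, as well as the 4 with the smallest interaction p, members called against their class and members failing the filter; of the other lists, up to 4 genes by p. Fold changes are on the log2 scale with SE. Genes sharing sequence with pseudogenes or overlapping genes are uncertain, since how kallisto divided such reads could affect them. Promoter windows are RefSeq's.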

Additional observations from a re-analysis of the deposited data

Results flagged for a closer look

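The effect of the Keap1 siRNA differed with and without Fem1b depletion for 3 proteasome genes, by the interaction term of the edgeR fit. Of the 47 members 2 were negative and 1 positive, where 5.32% and 6.11% of all genes were, so neither share lay above the background. Psmd5 had -0.32 ± 0.052 (log2, SE, adjusted p = 0.00036): the Keap1 siRNA raised it by 0.68 on its own and by 0.36 with Fem1b depleted. Psmd11 had -0.24 ± 0.054 (adjusted p = 0.0063), with effects of 0.42 and 0.18. Psmb1 had 0.33 ± 0.073 (adjusted p = 0.0064), with effects of -0.06 and 0.27. With 3 libraries in each group, single libraries were not tested as outliers.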

How the results depend on the processing

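Of the counts of called members, those for siFem1b against siCont and for siFem1b/Keap1 against siFem1b stayed within 1.5 times under all 8 alternatives and the 12 fits that left out a library. The members' median in siFem1b moved from -0.24 to -0.14 with library totals, -0.19 with at least 5 CPM in 3 libraries and -0.20 from the first run. The median of all genes was -0.0095 with that filter and -0.002 from the first run. In siFem1b/Keap1 against siCont the members' median moved from -0.12 to 0.01 with library totals, -0.05 with that filter and -0.07 without siCont replicate 2. Members lower in siKeap1 numbered 3 with library totals, 4 with at least 5 CPM in 3 libraries, 2 from the first run and 2 from the second run, against 8. Over all genes, lower calls in these settings numbered 2960, 2854, 2181 and 2767, against 3475. In siFem1b/Keap1 against siCont, library totals gave 14 lower and 18 higher and the 5 CPM filter 11 higher, against 24 and 5. Against siKeap1, library totals gave 6 higher, against 3. For the interaction, the first run gave 1 negative call, against 2, and no filter on low counts gave 2 positive, against 1. With library totals, Psmd1 (0.0061, adjusted p = 0.9) and Psmd2 (0.0311, adjusted p = 0.45) changed sign in siFem1b/Keap1 against siCont.

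Library totals moved the median of all genes to 0.09 in siFem1b, 0.13 in siFem1b/Keap1 and 0.10 between siFem1b/Keap1 and siKeap1. The split over all genes, lower to higher, was then 3547 to 5457, 3746 to 6134 and 3526 to 5680, against 4674 to 4373, 4906 to 4934 and 4602 to 4665. Library totals leave out the TMM factors. These ran from 0.952 to 0.968 in siCont, 0.973 to 0.980 in siKeap1, 1.019 to 1.029 in siFem1b and 1.040 to 1.045 in siFem1b/Keap1. Why the factors differed between groups was not tested.

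Leaving out 1 library gave 2 to 8 members lower and 7 to 17 higher in siKeap1, 33 to 39 and 2 to 3 in siFem1b, 20 to 25 and 2 to 8 in siFem1b/Keap1, and 1 to 5 positive interactions. Lower calls in siKeap1 were 2 without siCont replicate 2, siFem1b replicate 3 or siFem1b/Keap1 replicate 1, 3 without siKeap1 replicate 2, 4 without siFem1b/Keap1 replicate 3, and 5 without siKeap1 replicate 1 or 3. Higher calls there were 7 without siCont replicate 1. The whole set moved too without siFem1b replicate 3 or siFem1b/Keap1 replicate 1, which are outside this comparison. Lower calls over all genes then numbered 2907 and 2889, against 3475, and the median of all genes moved from -0.024 to 0.005 and 0.004. Higher calls in siFem1b/Keap1 were 8 without siCont replicate 2 and 2 without siCont replicate 1 or 3 or siFem1b/Keap1 replicate 3. Positive interactions were 5 without siCont replicate 1 and 2 without siCont replicate 3 or siFem1b replicate 2.

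The labels do not say whether same-numbered libraries shared more than a number. Their deviations correlated at -0.078 to 0.117 over 18 pairs, which cannot decide it. With a replicate block, 7 members were lower and 11 higher in siKeap1, 35 and 2 in siFem1b, and 24 and 4 in siFem1b/Keap1. Over the described members, all comparisons and alternatives, 3762 outcomes stayed on the same side of the threshold, called or not, while 135 calls were lost, 61 gained and 2 changed sign. Depth limited the lowest members: Psmb11 and Psme2b had SEs of 0.34 and 0.18 in siKeap1 against siCont.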
